A study of Mus musculus with 3 samples.

Results

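Skeletal muscle was read from droplet-based single-cell RNA sequencing of mouse dorsal skin as 2 classes of cell barcodes, satellite-like and myofibre-like. Among the 26847 barcodes kept from 3 libraries, 122 were satellite-like and 146 were myofibre-like, and 0 met both rules. The members were chosen by their own counts. Barcodes were kept with at most 10% of unique molecular identifiers (UMIs, 1 per captured mRNA molecule) from mitochondrial genes and at least 200 genes. Members also had under 1% of UMIs from keratin genes and no UMI of *Ptprc*, the pan-leukocyte gene that encodes CD45. A satellite-like barcode had at least 1 UMI of *Pax7*. A myofibre-like barcode had at least 3 UMIs in each of at least 3 of the 5 genes *Acta1*, *Ckm*, *Tnnt3*, *Mylpf* and *Atp2a1*. The levels of these genes are therefore given as a description.

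All mice were 25-week-old C3H/HeN females, and the skin of 7 to 8 mice was pooled into 1 library per group. The Neg library came from the negative (vehicle) control. The AA library came from the alopecia areata model, in which, per the study's methods, skin-draining lymph node cells of an affected donor are transferred to a recipient. The AA+Ab library came from the same model treated with an antibody that neutralizes CXCL12, a chemokine. Every pool was minced and digested with collagenase D, passed through meshes of 70 and 40 µm and cleared of debris on a Percoll gradient, which also sets which muscle cells and fibre pieces can enter a droplet. With 1 pool per group, differences between the groups, the pools and the depth of the dissected skin cannot be told apart, and no test between groups was made. Intervals at 95% are exact and cover counting error only.

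Under the dermis of mouse skin lies the panniculus carnosus, a thin sheet of striated muscle made mostly of fast-twitch fibres. A myofibre is a long syncytium whose sarcomeres slide actin and myosin filaments past each other. Calcium released from the sarcoplasmic reticulum starts contraction through the troponin complex, and the calcium pump SERCA1, the product of *Atp2a1*, takes it back up. Satellite cells are the stem cells of this muscle. They lie under the basal lamina of the fibre, are held quiescent by Notch signalling and niche matrix, and carry the transcription factor PAX7. On activation they turn on *Myod1*, and myogenin (*Myog*) then marks differentiating myoblasts that fuse into fibres.

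The files held 6965 barcodes in Neg, 10879 in AA and 10507 in AA+Ab, of which 6582, 10433 and 9832 were kept, with medians of 13694.5, 11177 and 11371 UMIs. Pairs of libraries shared 17 to 28 barcode sequences, and no member was shared. Both classes had lower medians than the kept barcodes as a whole. Barcodes with *Ptprc* had medians of 5984, 4742.5 and 4461 UMIs in Neg, AA and AA+Ab, near or under those of the satellite-like class. Satellite-like barcodes had medians of 7769, 4663.5 and 4622 UMIs in Neg, AA and AA+Ab, and myofibre-like barcodes had 3587.5, 2096 and 1610. Summed over a class, this gave 234573, 138574 and 388384 UMIs in satellite-like and 605289, 272429 and 279238 in myofibre-like barcodes. Levels below are CPM, the UMIs of a gene summed over the barcodes of a class per 1000000 UMIs of those barcodes.

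The libraries differed in the balance of the 2 classes. Satellite-like barcodes made up 0.228% of kept barcodes in Neg (15 barcodes, 95% Clopper-Pearson interval 0.128 to 0.376), 0.288% in AA (30, 0.194 to 0.410) and 0.783% in AA+Ab (77, 0.619 to 0.978). Myofibre-like barcodes made up 0.820% in Neg (54, 0.617 to 1.07), 0.527% in AA (55, 0.397 to 0.686) and 0.376% in AA+Ab (37, 0.265 to 0.518). Thus satellite-like barcodes per myofibre-like barcode went from 0.278 in Neg to 0.545 in AA and 2.08 in AA+Ab. The satellite-like share in AA+Ab was 2.72 times that in AA (1.77 to 4.30), while that in AA was 1.26 times that in Neg, with an interval that spans equal shares (0.658 to 2.52). The myofibre-like share in AA was 0.643 times that in Neg (0.433 to 0.953). In AA+Ab it was 0.714 times that in AA, again with an interval that spans equal shares (0.457 to 1.10).

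**Figure D1:**
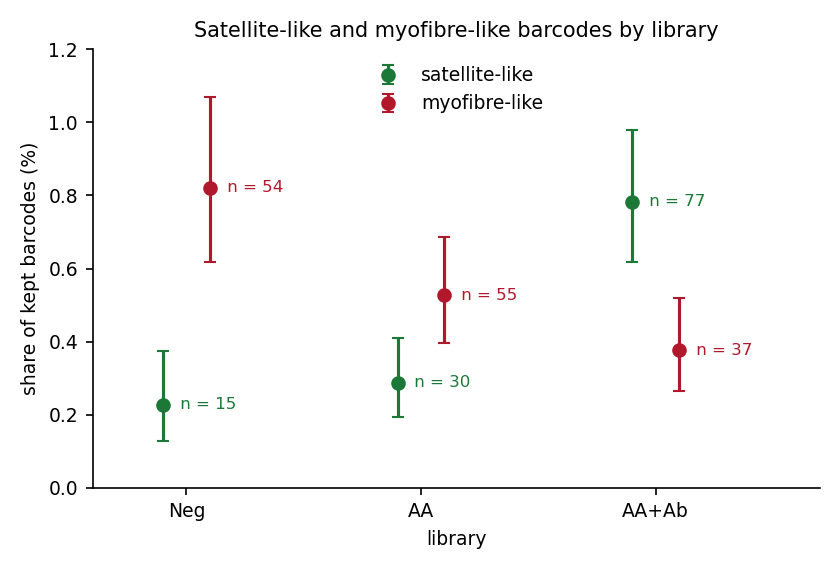
Share of kept barcodes (%) that were satellite-like (green) or myofibre-like (red) in each library, with 95% Clopper-Pearson intervals that cover counting error only and the number of barcodes. Satellite-like barcodes were rarer than myofibre-like ones in Neg and AA and more frequent in AA+Ab (0.783% against 0.376%).

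The plot of shares by library shows the crossing of the 2 classes. The satellite-like interval of AA+Ab lies above those of Neg and AA, which overlap each other. The myofibre-like intervals of neighbouring libraries overlap.

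Some members carried UMIs of other skin cells, most of all in Neg. At least 20 UMIs over a list of 10 keratinocyte genes (*Dsp*, *Sfn*, *Perp* and others) were found in 5 of 15, 1 of 30 and 4 of 77 satellite-like barcodes of Neg, AA and AA+Ab, and these held 76.9%, 9.15% and 19.4% of the UMIs of the class. In myofibre-like barcodes they were 13 of 54, 2 of 55 and 2 of 37, with 67.8%, 12.5% and 24.8% of the UMIs. A further group of myofibre-like barcodes had few contractile UMIs. The 32 contractile genes (the 5 rule genes, fast fibre genes and genes of the sarcomere) held a median of 25.2%, 32.3% and 24.1% of the UMIs of a myofibre-like barcode, but under 5% in 11, 1 and 2 of them. Barcodes of either kind are called mixed here, and the values that differ between libraries are also given without them. Without them, 10, 29 and 73 satellite-like and 37, 52 and 35 myofibre-like barcodes remain, and the balance of the classes is 0.270, 0.558 and 2.09. The satellite-like share of AA+Ab over AA was then 2.67 (1.72 to 4.26), whereas the myofibre-like share of AA over Neg becomes 0.887 with an interval that spans equal shares (0.571 to 1.39).

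**Figure D2:**
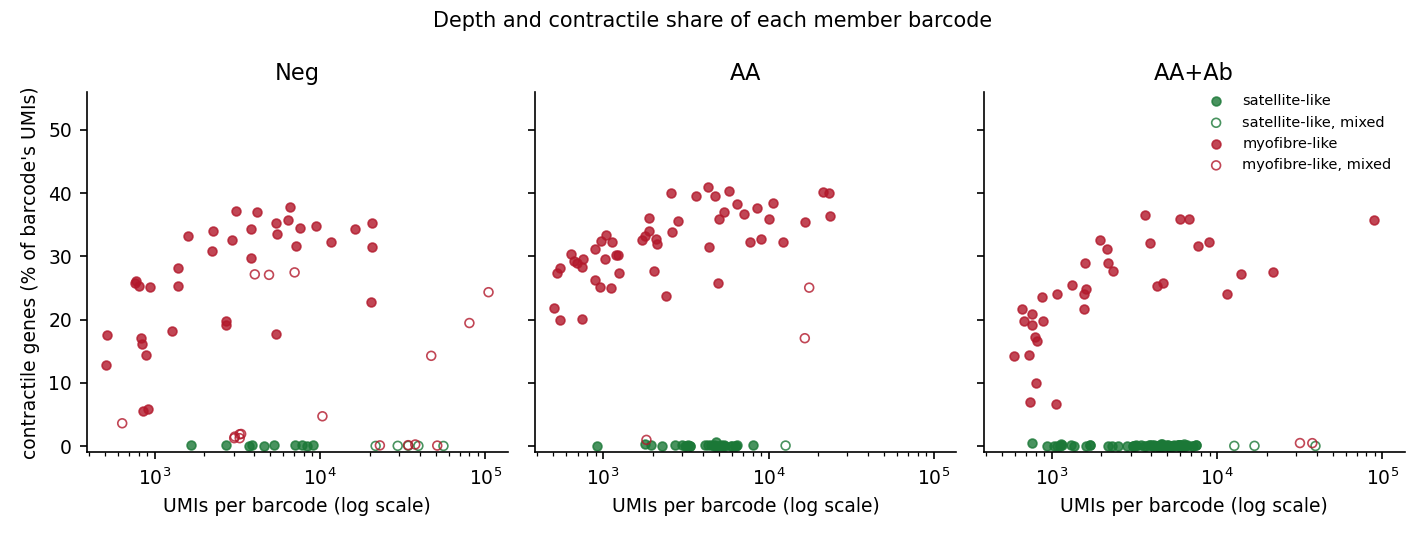
UMIs of each member barcode (log scale) against the percentage of its UMIs from 32 contractile genes, in each library. Green points are satellite-like, red points are myofibre-like, and open points are mixed barcodes. Filled red points spread from 5.62% to 41.0% contractile UMIs, no green point lies above 0.667%, and most open points are in Neg. Filled red points cannot lie under 5%, since such myofibre-like barcodes count as mixed.

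In the plot of depth against contractile share, the 2 classes do not meet apart from open points near the axis. This gap was set in part by the rules and is a description. The contractile genes include the 5 rule genes, and a myofibre-like barcode with under 5% contractile UMIs counts as mixed. Of the mixed barcodes in Neg, 5 formed a set of their own, with 3029 to 3336 UMIs, 1.25% to 1.92% contractile UMIs and 24 to 30 UMIs each of *Dct*, a gene of melanin synthesis. Their counts over 110 genes differed among themselves by little more than sampling noise (chi-square per degree of freedom 1.07), against 2.79 over 78 genes in 6 myofibre-like barcodes of like depth. These 5 barcodes are counted in the 54 of Neg and are left out with the mixed barcodes. The set was seen after the values of the barcodes had been examined.

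Near the thresholds, *Pax7* stood at exactly 1 UMI in 6, 4 and 30 satellite-like barcodes of Neg, AA and AA+Ab, and 4, 4 and 27 of these carried at least 3 genes of the satellite list described next. Myofibre-like barcodes at exactly 3 of the 5 genes were 6, 1 and 0. Just outside the rule, 19 barcodes in Neg, 1 in AA and 0 in AA+Ab reached 3 UMIs in 2 of the 5 genes, and those of Neg had a median of 0.127% contractile UMIs. The limit on keratin left out 4, 5 and 11 barcodes with *Pax7* and 12, 4 and 5 that met the myofibre rule. The limit on *Ptprc* left out 0, 0 and 4 barcodes with *Pax7*, and these 4 carried at least 3 genes of the satellite list.

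The satellite-like barcodes bore their label in genes that the rule did not use. A list of 16 satellite cell genes without *Pax7* was found with at least 3 genes in 117 of 122 barcodes and with at least 6 in 102. At least 3 were also found in 6 of 48, 3 of 54 and 4 of 37 myofibre-like barcodes with 4 or 5 rule genes in Neg, AA and AA+Ab. The same held for 6 of the 19 Neg barcodes just outside the myofibre rule, so 3 genes alone are not particular to the class. *Chodl*, a membrane lectin, was found in 99 barcodes, and the growth factor receptor gene *Fgfr4* in 92. *Megf10*, a receptor of satellite cells, was found in 79, the calcitonin receptor gene *Calcr* in 73 and *Cdh15* (M-cadherin) in 43. Each of these 5 had a mean of at most 1.25 CPM in the other kept barcodes. For *Chodl* the levels were 328, 787 and 677 CPM in Neg, AA and AA+Ab, and 1072, 858 and 799 without mixed barcodes. *Sdc4* (syndecan-4) was found in 105 barcodes, but it is also common elsewhere in skin, with a mean of 812 CPM over the other barcodes against 770 CPM in the class. In the myofibre-like class *Pax7*, *Myf5*, *Chodl*, *Fgfr4*, *Calcr*, *Megf10* and *Heyl* had 0 UMIs in 146 barcodes, which allows a share of barcodes with a UMI of up to 2.05%.

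*Pax7* itself had 59, 114 and 194 UMIs in the 3 libraries, a level of 252, 823 and 500 CPM, which becomes 832, 826 and 598 CPM without mixed barcodes. In barcodes with at least 1% keratin it was rare, with a UMI in 0.0949%, 0.0717% and 0.194% of them. In barcodes with *Ptprc* it was found in 0 of 437, 0 of 704 and 5 of 713, which is 0.701% in AA+Ab and near the satellite-like share of that library. By contrast, *Acta1* was found in 33.2%, 23.8% and 15.4% of the barcodes with at least 1% keratin, whose medians were 12984, 11291.5 and 11294 UMIs. *Acta1* in satellite-like barcodes, found in 5 of 15, 6 of 30 and 9 of 77 with at most 2 UMIs each, stood near or under these shares, so no expression is read from it.

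The satellite-like barcodes held UMIs of early myogenic factors, and few or none of the later ones. *Myf5*, an early myogenic factor, was found in 68 barcodes and *Myod1*, the activation factor, in 10, both in 5 and neither in 49. *Myog* and the fusion genes *Mymk* and *Mymx* had 0 UMIs in the 122 barcodes, which allows a share with a UMI of up to 2.46%. Of the cell cycle genes *Mki67* and *Top2a*, 158 UMIs were found in 26 barcodes, but 136 of these UMIs were in 6 mixed barcodes. Among the others only 2 barcodes had more than 1 UMI of them. By library, *Myf5* was found in 9 of 15, 15 of 30 and 44 of 77 barcodes and *Myod1* in 3, 2 and 5.

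Genes of quiescence and of the Notch pathway were widely detected. The Notch target *Heyl* was found in 69 of the 122 barcodes, at 55.4, 253 and 232 CPM in Neg, AA and AA+Ab, and 166, 262 and 288 CPM without mixed barcodes, against a mean of 1.99 CPM in the other barcodes. *Spry1*, an inhibitor of growth factor signalling, was found in 76 and *Gas1*, a growth arrest gene, in 98, the latter at a mean of 807 CPM against 30.1. *Notch3* was found in 58 and *Cd34*, a surface antigen of quiescent satellite cells, in 55. The niche and adhesion genes followed, with *Lama2* (laminin alpha-2 chain of the muscle basal lamina) in 105 barcodes at 697 CPM against 10.2 and *Dag1* (dystroglycan, the laminin receptor) in 89. Collagen genes of the same matrix list were lower, such as *Col3a1* in 46 barcodes and *Col1a1* in 6. The matrix list as a whole had 1202, 3132 and 2438 CPM, and 3752, 3233 and 2819 CPM without mixed barcodes.

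The 15 genes with the highest ratio of mean CPM to the other kept barcodes, with 5 CPM added to each, were led by *Nppc* (C-type natriuretic peptide), with 131 times the level elsewhere, at 1026 CPM against 2.88. *Hs6st3*, a heparan sulfate sulfotransferase, followed at 114 times and *Chodl* at 96.5 times. The cyclic nucleotide phosphodiesterase genes *Pde10a* and *Pde7b* stood at 77.7 and 64.5 times. The others were *Glis3*, *Meg3*, *Calcr*, *Fgfr4*, *Hmcn2*, *Gpx3*, *Slc43a3*, *Erfe*, *Lama2* and *Grb10*, at 45.0 to 64.7 times. *Nppc* was found in 86 of 122 barcodes, at 571, 1220 and 1287 CPM in the 3 libraries, and at 2052, 1342 and 1572 CPM without mixed barcodes. Of the 15 genes, *Chodl*, *Calcr* and *Fgfr4* were already on the satellite list. Of a list of junction and denervation genes, satellite-like barcodes held *Ncam1* in 96, the acetylcholine receptor subunit gene *Chrnb1* in 39, the kinase gene *Musk* in 33 and *Rapsn* in 30. In myofibre-like barcodes of Neg, AA and AA+Ab, *Ncam1* was found in 0 of 54, 0 of 55 and 0 of 37. *Musk* was found there in 2, 0 and 0. A junction programme in satellite-like barcodes was not tested.

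The myofibre rule itself rests on genes of fast fibres (*Tnnt3*, *Mylpf* and *Atp2a1*), so slow fibres could hardly enter the class, and the values of fast and slow genes in it are a description. *Tnnc2*, the calcium-binding troponin subunit of fast fibres, was found in 146 of 146 barcodes and *Tnni2*, the inhibitory subunit, in 144. *Pvalb* (parvalbumin, a calcium buffer of fast fibres) was found in 128 and *Actn3*, the fast alpha-actinin, in 124. Of the slow fibre genes, *Myh7*, *Tnnc1*, *Myl2* and *Myl3* had 0 UMIs, as did the developmental myosins *Myh3* and *Myh8* and *Tnnt2*. *Mybpc1* was the main gene of the slow list to be found, in 87 barcodes. The 10 fast fibre genes held 47777, 93489 and 59899 CPM in Neg, AA and AA+Ab, and the 10 slow genes 359, 481 and 688 CPM. Without mixed barcodes the fast list had 83619, 99082 and 79261 CPM, and the slow list 800, 503 and 900 CPM.

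Myosin heavy chains could be read barcode by barcode, because UMIs tag the end of a transcript and do not grow with its length. Of 146 barcodes, 107 had a UMI of *Myh1*, *Myh2*, *Myh4*, *Myh7*, *Myh3* or *Myh8*. *Myh4*, the myosin of the fastest (type IIb) fibres, led in 85, *Myh1* (type IIx) in 20 and *Myh2* (type IIa) in 1, with 1 tie. The sums were 1215 UMIs of *Myh4*, 230 of *Myh1* and 19 of *Myh2*. Many calls rest on few UMIs, with a *Myh4* median per barcode of 367, 1060 and 0 CPM in Neg, AA and AA+Ab. Mixed barcodes are included, and *Myh4* was also found in 0.561% to 2.29% of barcodes with at least 1% keratin or with *Ptprc*. *Myh1* and *Myh4* occurred together in 20 barcodes. The genes *Myh1*, *Myh2* and *Myh4* are related in sequence, and the part of reads that match more than 1 of them was not examined.

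Next to the contractile genes stood those of fibre energy supply. The genes with the highest ratio to the other barcodes were *Tnnc2* (1464 times), *Tnni2* (1331), *Car3*, carbonic anhydrase 3 (1126), and *Myl1*, a myosin light chain (1063). They were followed by the muscle enolase gene *Eno3* (653), the titin cap gene *Tcap* (535), the small heat shock protein gene *Cryab* (535), *Des* (desmin, 527), *Myoz1*, *Pgam2*, *Csrp3*, *Pvalb*, *Actn3*, *Cox6a2* and *Apobec2*, down to 287 times. *Car3* was found in 142 of 146 barcodes at 7681, 11464 and 10081 CPM, and at 10763, 11962 and 13345 CPM without mixed barcodes. It is also abundant in fat cells, and of the 9 other genes of the fat cell list *Lpl* had 38, 22 and 43 UMIs and *Fabp4* 34, 1 and 0, while 7 were at 0 in the class. The 12 genes of glycolysis and glycogen use held 40592, 65092 and 50255 CPM in Neg, AA and AA+Ab, and 64149, 68518 and 65797 CPM without mixed barcodes. The 11 genes of the creatine and oxidative list held 8733, 13347 and 13720 CPM. Its ratio of AA to Neg, 1.53, turned to 0.903 without mixed barcodes, at 15636, 14123 and 17752 CPM. *Mb* (myoglobin, the oxygen store of oxidative fibres) was found in 91 barcodes.

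The regulators of the fibre state differed from those of the satellite-like class. *Mef2c*, a transcription factor of differentiated muscle, was found in 80 myofibre-like and 0 satellite-like barcodes, and *Myf6*, the late myogenic factor, in 35 and 2. *Mstn* (myostatin, which limits muscle growth) was found in 64 and 0, and the ubiquitin ligase gene *Trim63* in 55 and 0. *Des*, which serves both cell types, was found in 135 and 93, at a mean of 4374 and 322 CPM. *Myod1* was found in 13 and 10. Mitochondrial transcripts were scarce in myofibre-like barcodes, with a median of 0.209%, 0.195% and 0.125% of UMIs in Neg, AA and AA+Ab against library medians of 2.18% to 3.17% in satellite-like ones. The kept barcodes were limited to 10%, which left out 2, 1 and 1 barcodes that met the myofibre rule.

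**Figure D3:**
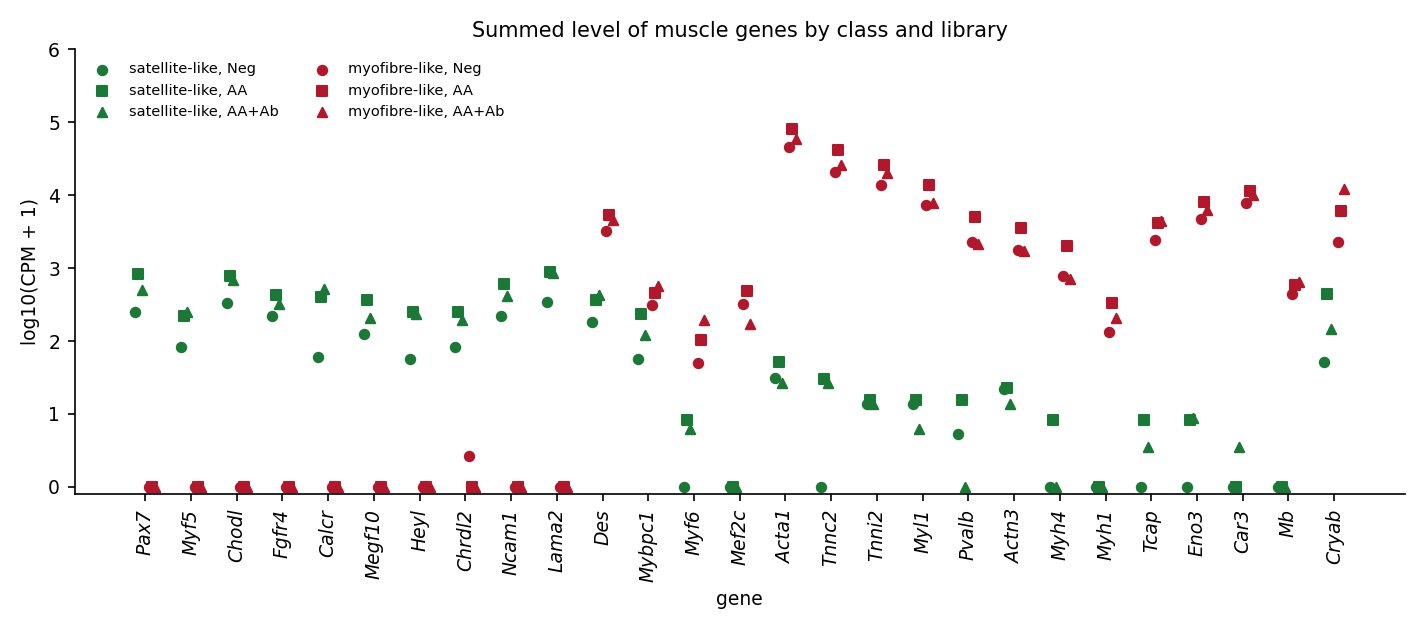
Level of 27 genes as log10(CPM + 1) over the summed barcodes of each class (green satellite-like, red myofibre-like) and library (circle Neg, square AA, triangle AA+Ab). Genes from *Pax7* to *Lama2* are at or near 0 in the myofibre-like class, *Des* and *Mybpc1* are found in both, and genes from *Acta1* to *Cryab* are far higher in the myofibre-like class.

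The plot of 27 genes sets the classes side by side. It includes the rule genes *Pax7* and *Acta1*, whose separation the rule fixed. The fast fibre list in satellite-like barcodes stood at 51.2, 101 and 59.2 CPM, a log2 difference from the myofibre-like class of -9.87 in Neg, -9.85 in AA and -9.98 in AA+Ab. The other kept barcodes held 48.8, 31.4 and 29.0 CPM of the same list, and the satellite-like values rest on 12, 14 and 23 UMIs. The fibroblast list of 10 genes held 234, 455 and 574 CPM in satellite-like barcodes, from *Dcn*, *Col3a1*, *Dpt*, *Col1a1* and *Col1a2*, with 0 UMIs of the other 5 genes. In myofibre-like barcodes it held 413, 14.7 and 584 CPM, nearly all *Dcn* (247, 4 and 163 UMIs), and 43.3, 16.9 and 33.4 CPM without mixed barcodes. The endothelial list held 3.58 to 57.7 CPM, mostly *Tek* in satellite-like barcodes (1, 8 and 15 UMIs), with *Cdh5*, *Kdr*, *Tie1*, *Flt1*, *Emcn* and *Cldn5* at 0 in both classes. The part of these cells in the results was not tested. The immune list of 10 genes stayed at 3.58 to 18.4 CPM over both classes and all libraries, but the keratinocyte list reached 4122 and 4254 CPM in the 2 classes of Neg, against 1082 to 1282 CPM in the other libraries. Without mixed barcodes the keratinocyte list stood at 508 to 687 CPM in every class and library, which follows in part from the cut, since this list defines mixed barcodes.

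The bases before the starts of muscle genes are shown for the letters CAGCTG, an E-box that myogenic bHLH factors such as MYOD1 can bind, and for the TATA box letters TATAAA. Both strands were searched over 250 bases before the start, with positions counted back from the start, in RefSeq promoters of GRCm38.p6. Of 14 muscle genes looked up, 11 were found. CAGCTG was present in *Acta1*, *Ckm*, *Mylpf*, *Atp2a1*, *Myl1* and *Myh4*, and in none of *Pax7*, *Myf5*, *Chodl*, *Tnnc2* and *Pvalb*. It occurs in 13.0% of all 32851 promoters of the same length, and TATAAA occurs in 12.4%. The last 120 bases before the start are printed 5′ to 3′ on the strand of the gene, with CAGCTG or TATAAA (on either strand) in capitals. They are *Mylpf* and *Atp2a1* (rule genes with the E-box at -51 and -55), *Myh4* (the leading myosin, with it at -67), *Acta1* (with it at -221, before the printed stretch) and *Pax7* for comparison.
Mylpf, chr7:127211488-127211607, plus strand: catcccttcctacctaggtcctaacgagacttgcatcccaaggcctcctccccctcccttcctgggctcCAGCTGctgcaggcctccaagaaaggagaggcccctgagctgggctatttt
Atp2a1, chr7:126463074-126463193, minus strand: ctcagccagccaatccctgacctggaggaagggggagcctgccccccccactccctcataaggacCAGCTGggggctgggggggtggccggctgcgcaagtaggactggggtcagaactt
Myh4, chr11:67237692-67237811, plus strand: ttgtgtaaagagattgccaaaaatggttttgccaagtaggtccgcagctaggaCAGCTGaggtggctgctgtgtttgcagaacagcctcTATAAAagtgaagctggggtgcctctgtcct
Acta1, chr8:123894776-123894895, minus strand: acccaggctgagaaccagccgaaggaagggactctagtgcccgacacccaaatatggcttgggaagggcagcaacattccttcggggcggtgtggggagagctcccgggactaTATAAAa
Pax7, chr4:139832969-139833088, minus strand: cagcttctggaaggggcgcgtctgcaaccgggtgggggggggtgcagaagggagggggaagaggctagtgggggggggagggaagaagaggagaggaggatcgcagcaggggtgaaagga

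In the printed stretches the E-box stands in *Mylpf*, *Atp2a1* and *Myh4*, and a TATAAA in *Myh4* and *Acta1*. A match of letters is a description and not a bound site. In mm10, *Acta1* lies on chromosome 8, *Mylpf* and *Atp2a1* on chromosome 7, *Myh4* on chromosome 11 and *Pax7* on chromosome 4.

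Between libraries, a gene was compared in a class when it had at least 50 UMIs over both libraries, and a ratio of CPM of at least 2 or at most 0.5 was counted as past the fold, without a test. In satellite-like barcodes, 16.8% of 1105 genes were at least 2 times higher in AA than in Neg and 24.8% were at most 0.5 times. Without mixed barcodes these shares were 6.07% and 4.44% of 428 genes, and of the genes first past the fold and still compared, 18 of 141 and 3 of 21 stayed so. Between AA+Ab and AA the shares were 5.35% and 4.32% of 1551 genes, and 4.32% and 4.4% of 1205 without mixed barcodes, with 38 of 51 and 42 of 57 still past the fold. In myofibre-like barcodes, 2.63% and 30.4% of 1979 genes were past the fold between AA and Neg, which became 0.361% and 2.4% of 832. Between AA+Ab and AA it was 13.9% and 2.65% of 1132 genes, which became 5.56% and 1.7% of 881. The comparison of AA+Ab with AA in satellite-like barcodes thus depended least on the mixed barcodes.

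The satellite list shows how the mixed barcodes weigh. Of its 16 genes, 10 could be compared between AA and Neg, and 8 were at least 2 times higher in AA, with a median ratio of 2.67 against 0.906 over all 1105 genes. Without mixed barcodes, 8 were compared and 0 were past the fold, with a median of 0.804 against 1.01. Between AA+Ab and AA, 0 of 13 genes were past the fold in either direction (median 0.861 against 1.00), and 0 of 12 without mixed barcodes.

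The metallothionein genes, which encode small metal-binding proteins, were higher in AA+Ab than in AA in satellite-like barcodes. *Mt1* stood at 4604 CPM in Neg, 1349 in AA and 6053 in AA+Ab. Per barcode, its median was 3097, 463 and 2250 CPM, with lowest and highest values of 378 and 15424 in Neg, 0 and 9666 in AA, and 0 and 33237 in AA+Ab, so that the libraries overlap and AA is lower in its middle. The ratio of AA+Ab to AA was 4.49 (3.86 to 5.23), and 4.82 without mixed barcodes. *Mt2* had a ratio of 4.27 (3.31 to 5.59), and 4.29 without mixed barcodes. The ratio of AA to Neg was 0.293 for *Mt1*, 0.309 without mixed barcodes and 0.626 when the deepest remaining barcode of each library was also left out. In the myofibre-like class *Mt1* ran the same way at 3463, 521 and 1139 CPM, and at 871, 427 and 758 CPM without mixed barcodes. *Mt1* is high throughout these skins, at a mean of 3897 CPM in the other kept barcodes, where AA was 0.551 times Neg and AA+Ab 1.36 times AA. The part of free RNA in the values of muscle cells was not tested.

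Several heat shock genes were lower in AA+Ab than in AA in satellite-like barcodes, a grouping made after their values were seen. In the digestion response list of 17 genes described next, 4 were at most 0.5 times AA, against 4.32% of all genes, and 3 without mixed barcodes, against 4.4%. The 4 were *Hspa1a*, *Hspa1b*, *Hsp90aa1* and *Dnajb1*, while *Hspa8* was at 0.753 times. *Hspa1a*, the inducible HSP70 gene, had 1701 CPM in Neg, 6069 in AA and 2248 in AA+Ab. Per barcode, its median was 1211, 5357 and 1467 CPM, and in AA all but 1 of 30 barcodes had a UMI of it. The AA+Ab level was 0.370 times that of AA (0.337 to 0.408), and 0.417 times without mixed barcodes. The cochaperone gene *Dnajb1* was at 0.315 times and *Hsph1*, of the HSP110 family and not on the list, at 0.244 times. Against Neg, AA stood at 4.03 times for *Dnajb1* (1.80 without mixed barcodes) and 3.39 times for *Hsph1* (2.23). The ratios of AA+Ab to AA in the other kept barcodes were 0.477 for *Hspa1a*, 0.570 for *Dnajb1* and 0.384 for *Hsph1*, in the same direction. *P4ha1*, a collagen prolyl hydroxylase subunit, had 9, 52 and 42 UMIs and was 9.78 times higher in AA than in Neg (4.78 to 22.6) and 0.288 times in AA+Ab against AA, where the other barcodes had 1.48 and 0.709 times.

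**Figure D4:**
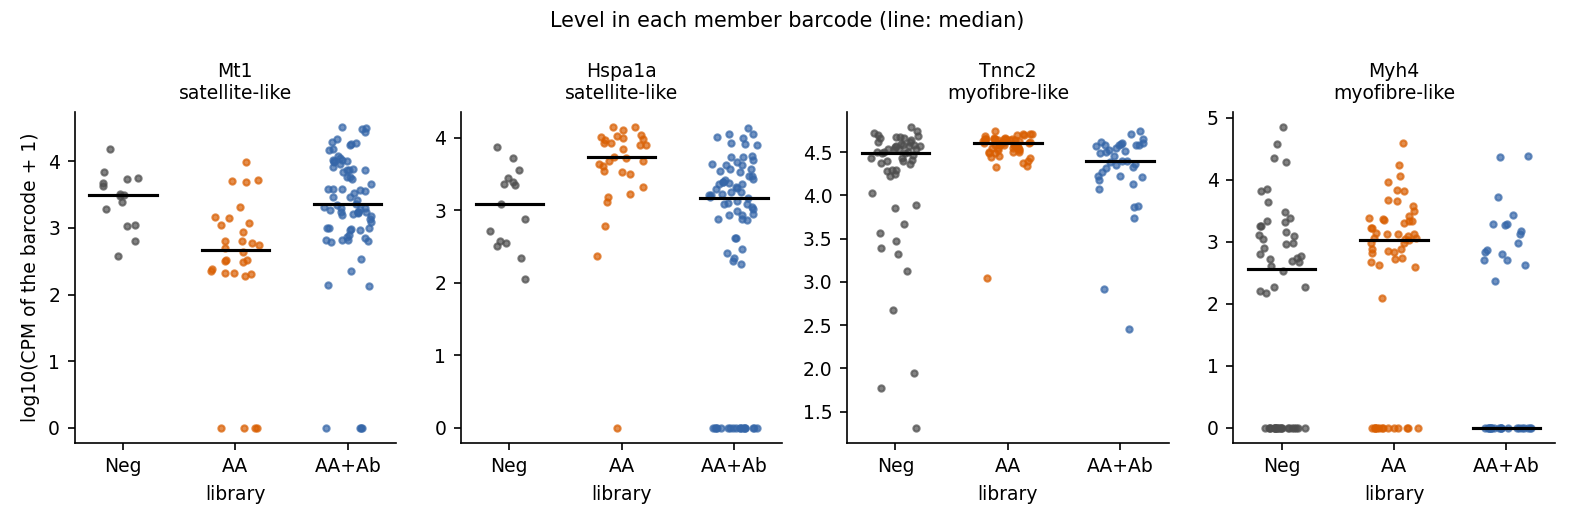
Level of *Mt1* and *Hspa1a* in each satellite-like barcode and of *Tnnc2* and *Myh4* in each myofibre-like barcode, as log10(CPM of the barcode + 1), with a line at the median of the library (Neg grey, AA orange, AA+Ab blue). The AA points are lower for *Mt1* and higher for *Hspa1a*, *Tnnc2* is present in every barcode with a tail of low values in Neg, and *Myh4* has a median of 0 in AA+Ab.

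In the plot of single barcodes, quartiles are over all members, and 5 of the 15 in Neg were mixed. The upper quartile of *Mt1* in AA (1176 CPM) lies under the lower quartile in Neg (1516 CPM) and above that in AA+Ab (984 CPM). The gap to Neg rests on the mixed barcodes, since Neg barcodes that were not mixed included values of 378, 644, 1080 and 1108 CPM. For *Hspa1a* the lower quartile in AA (3191 CPM) lies above the upper quartile in Neg (2591 CPM) and just under that in AA+Ab (3339 CPM). Genes of the response to tissue digestion (*Fos*, *Jun*, *Egr1*, *Hspa1a* and 13 others) were high in satellite-like barcodes, at 24125, 57146 and 54189 CPM against 19530, 23121 and 18878 CPM in the other barcodes. Without mixed barcodes the satellite-like levels were 45916, 59939 and 65056 CPM. Of the 17 genes, 10 were at least 2 times higher in AA than in Neg, and 3 without mixed barcodes, against 16.8% and 6.07% of all genes compared. In myofibre-like barcodes the list held 7195, 3447 and 6668 CPM, and 3088, 1941 and 3611 CPM without mixed barcodes.

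The antibody of the AA+Ab library is directed at CXCL12, whose receptors CXCR4 and ACKR3 are known from satellite cells. *Cxcr4* was found in 1 of 15, 5 of 30 and 9 of 77 satellite-like barcodes and in 0 myofibre-like barcodes. *Ackr3*, the scavenging receptor, was found in 6 of 15, 3 of 30 and 27 of 77, with 10, 4 and 60 UMIs, or 42.6, 28.9 and 154 CPM. Without mixed barcodes it stood at 185 CPM in Neg, 31.8 in AA and 185 in AA+Ab. The values of Neg and AA rest on at most 10 and 4 UMIs, so no order of these libraries is read. AA+Ab was 5.35 times AA (1.98 to 20.3), 5.83 times without mixed barcodes, and 4.73 times when the deepest remaining barcodes were also left out, against 1.04 times in the other kept barcodes. All 3 ratios rest on the same few UMIs of AA. Without mixed barcodes AA+Ab stood level with Neg, so no rise with the antibody is read. After each barcode was thinned to 1000 UMIs, 0 of 15, 1 of 29 and 6 of 75 barcodes had a UMI, and the mean of 67.1 CPM in the other barcodes lies within the range of the 3 satellite-like values. *Cxcl12* itself had 2, 3 and 3 UMIs in satellite-like barcodes, and of its 14 UMIs in myofibre-like barcodes 13 were in 1 mixed barcode of AA.

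The interferon list of 23 genes was higher in AA in satellite-like barcodes, through few of its genes. It held 546, 2353 and 1491 CPM in Neg, AA and AA+Ab, and 980, 2033 and 1620 CPM without mixed barcodes. The AA to Neg ratio was 4.31, and 2.08 (1.54 to 2.85) without mixed barcodes. Only 3 genes were compared, all of them MHC class I chain genes (*H2-K1*, *H2-D1* and *B2m*), and they had 3 of 3 past the fold at first and 2 of 3 without mixed barcodes, against 16.8% and 6.07% of all genes. Their medians were 4.46 and 2.73, against 0.906 and 1.01 over all genes. *H2-D1* had 26, 92 and 139 UMIs, and *Irf1*, an interferon-induced transcription factor, 7, 35 and 74. AA+Ab was 0.634 times AA, and 0.797 (0.684 to 0.930) without mixed barcodes. In the other kept barcodes the list was higher, at 2672, 3907 and 3039 CPM, with ratios of 1.46 and 0.778 in the same directions. In myofibre-like barcodes it had 495, 135 and 48 UMIs, and its AA to Neg ratio of 0.606 became 2.14 (1.39 to 3.37) without mixed barcodes, so that no direction is read. MHC class II genes were near 0, with 0, 4 and 8 UMIs in satellite-like barcodes.

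**Figure D5:**
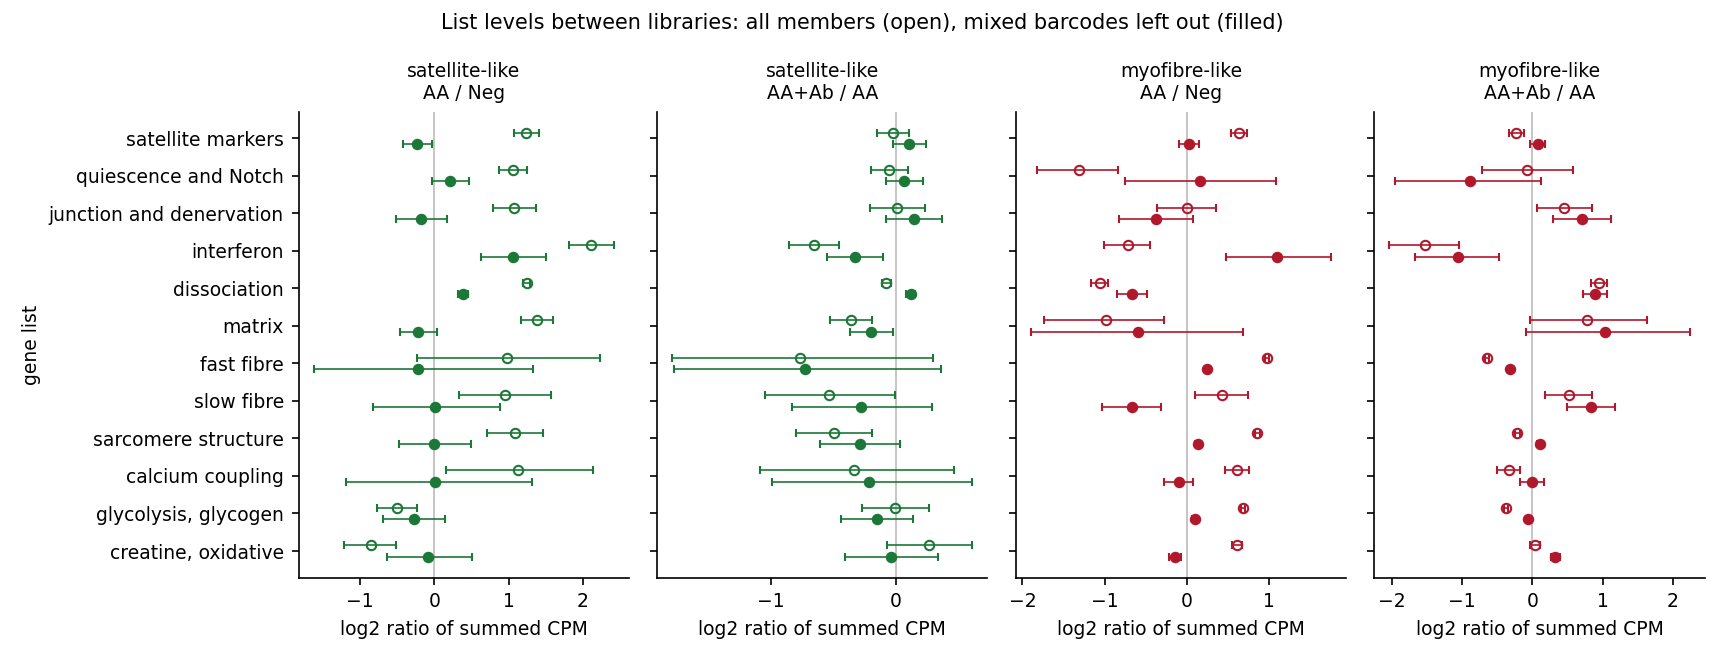
Log2 ratio of summed CPM between libraries for 12 gene lists in each class, with 95% conditional intervals that cover counting error only. Open points are all members and filled points leave out the mixed barcodes. In satellite-like barcodes the ratios of AA to Neg shrink towards 0 for most lists without mixed barcodes (satellite markers from 2.36 to 0.854 times), the interferon ratio of AA+Ab to AA moves from 0.634 to 0.797 times, and in myofibre-like barcodes the interferon ratio of AA to Neg changes side.

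Within the myofibre-like class, *Myh4* was the contractile gene with the lowest ratio of AA+Ab to AA. It had 469, 551 and 195 UMIs, found in 32 of 54, 41 of 55 and 17 of 37 barcodes, or 775, 2023 and 698 CPM. In Neg, mixed barcodes with keratinocyte UMIs held 67.8% of the UMIs of the class. The 775 CPM of *Myh4* in Neg includes these barcodes and is therefore not set against AA or AA+Ab. That it stands near the 698 CPM of AA+Ab is not read as a likeness of the 2 libraries. The *Myh4* ratio of AA+Ab to AA was 0.345 (0.292 to 0.407), 0.414 without mixed barcodes and 0.375 without the deepest remaining barcodes as well, against 1.01 in the other kept barcodes. No value of Neg without mixed barcodes is given for it. Among the 9 fast fibre genes compared, 4 were at most 0.5 times AA, against 2.65% of all 1132 genes (median 0.569 against 1.10). Without mixed barcodes it was 1 of 9, against 1.7% of all genes (median 0.714 against 1.05). *Mef2c*, at 0.360 times (0.253 to 0.505), became 0.440 and then 0.593. The slow list was at 1.43 times, and 1.79 without mixed barcodes, with 157 of its 192 UMIs in AA+Ab from *Mybpc1*.

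A single barcode set other values. The deepest myofibre-like barcode of AA+Ab had 89074 UMIs, 31.9% of the class, and carried 3021 UMIs of *Cryab*, 1616 of the small heat shock gene *Hspb1* and 994 of *Csrp3*, a protein of the Z-disc. For *Csrp3* the AA+Ab to AA ratio was 1.61 over all barcodes and 0.351 without the mixed barcodes and the deepest remaining barcode of each library, and for *Cryab* 1.96 and 0.369, so that neither has a direction. Likewise, of the 80 genes with the 10 highest and 10 lowest ratios in the 4 comparisons, 27 had at least 50% of the UMIs of the higher library in 1 barcode, among them the 10 highest of AA+Ab over AA in myofibre-like barcodes (such as *Otud1*, 89.3%). Between AA and Neg, 3 genes were higher and 20 lower in AA past the fold without mixed barcodes. Of the genes first higher, 1 of the 39 still compared stayed so, *F830016B08Rik*, which was 17.8 times higher in AA (9.19 without mixed barcodes) and 12.0 times in the other kept barcodes, and had 54.2% of its UMIs of AA in 1 barcode. *Cav3* (caveolin-3 of the muscle membrane) was 3.47 times higher and *Hspb2* 3.33 times over all barcodes, but both had under 50 UMIs left without mixed barcodes and were not compared there.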

How the data were processed

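The authors deposited, per library, a table of raw UMI counts per gene and barcode from Cell Ranger 7.2.0 (build mm10, 10x 3′ v3.1 chemistry; the submitters' notes also name FastQC 0.11.7). From these counts, members were selected by the stated rule, and counts were summed per class and library and divided by all UMIs of the class (CPM). Shares carry Clopper-Pearson intervals, counts Poisson intervals and ratios conditional intervals, all at 95%. The members and gene lists were chosen with earlier results of these data known. Named genes are those of 25 lists, the 15 genes per class with the highest CPM ratio to the other kept barcodes (5 CPM added, found in at least 20% of the class) and the 10 highest and 10 lowest ratios per comparison. Other names were chosen after their values were seen.

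A share of 0 was set against a floor of 3 counts. Likely doublets were kept. As an alternative, scanpy's Scrublet scores took 367, 908 and 826 barcodes (0.8% per 1000 barcodes). The alternatives covered the keratin, mitochondrial, *Pax7* and myofibre limits, the minimum of summed UMIs, and CPM over single cells or without muscle genes. The calculation of the ratios was run on simulated counts with 200 changed genes. This checks the calculation only, and nothing is concluded from it on the mixed barcodes or on single deep barcodes. In AA against Neg, 161 of 161 changed genes that were compared had the right direction in satellite-like barcodes (1178 genes) and 176 of 176 in myofibre-like ones (2276 genes). Python 3.11.15, numpy 2.4.6, scipy 1.17.1, pandas 2.3.3, scanpy 1.11.5 and matplotlib 3.10.9 were used.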

Additional observations from a re-analysis of the deposited data

Results flagged for a closer look

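The satellite-like share of AA+Ab was 2.72 times that of AA (1.77 to 4.30), and the myofibre-like share was 0.714 times, with an interval that spans equal shares (0.457 to 1.10). The satellite-like difference was smaller with at least 2 *Pax7* UMIs, where 47 barcodes remained in AA+Ab (0.478%) and 26 in AA (0.249%). The difference between the classes was not tested, since each group is 1 pooled library.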

How the results depend on the processing

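No paired analysis was possible because each group is 1 pooled library. For the same reason no replicate could be left out. Of 228 values under the alternatives, 178 kept their direction and stayed within the stated limits (1.5 times for a count of genes, the counting interval otherwise), 46 moved and 4 changed direction. The 3 ways of leaving out or redefining members (mixed barcodes, mixed barcodes with the deepest remaining barcode, and satellite-like barcodes with at least 3 satellite genes) were chosen after seeing the data. The cause of the changes was not tested, apart from the minimum of summed UMIs, which sets how many genes are compared.

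The satellite-like share in AA+Ab was 0.478% with at least 2 *Pax7* UMIs, where that in AA was 0.249%. The myofibre-like share in Neg was 0.547% with keratin under 0.5%, 0.562% with at least 10 UMIs per gene, 0.562% without mixed barcodes and 0.547% without the deepest as well. The fast fibre log2 difference between the classes in Neg was -10.88 with at least 2 *Pax7* UMIs, and as a mean over cells it was -8.83 in Neg and -9.28 in AA+Ab.

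Genes past the fold numbered 460 (satellite-like, AA against Neg), 150 (satellite-like, AA+Ab against AA), 654 (myofibre-like, AA against Neg) and 187 (myofibre-like, AA+Ab against AA). In that order they were 1372, 680, 2132 and 653 with a minimum of 20 UMIs, 65, 20, 91 and 33 with a minimum of 200, and 34, 97, 20 and 62 without mixed and deepest barcodes. Without mixed barcodes alone, AA against Neg gave 45 in satellite-like and 23 in myofibre-like barcodes, and AA+Ab against AA gave 64 in myofibre-like ones. With keratin under 2%, AA against Neg gave 745 and 1036 in the 2 classes. With at least 2 *Pax7* UMIs the satellite-like counts were 168 (AA against Neg) and 68 (AA+Ab against AA), and as a mean over cells AA against Neg gave 257. In myofibre-like barcodes AA against Neg gave 233 with keratin under 0.5%, 183 with at least 10 UMIs per gene, 422 with 4 of the 5 myofibre genes and 402 without likely doublets.

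The interferon list's log2 ratio of AA to Neg in satellite-like barcodes, 2.11, was 1.45 with at least 2 *Pax7* UMIs, 1.56 with keratin under 2%, 1.39 as a mean over cells, 1.05 without mixed barcodes and 1.30 without the deepest as well. Its ratio of AA+Ab to AA, -0.66, was -0.40 without likely doublets, -0.33 without mixed barcodes and -0.44 without the deepest as well. In myofibre-like barcodes AA against Neg, -0.72, changed direction to 0.34 with keratin under 0.5%, 1.10 without mixed barcodes and 1.12 without the deepest as well. It was -1.35 with keratin under 2%, -0.35 without likely doublets, -0.32 without muscle genes in the total and -0.17 as a mean over cells. AA+Ab against AA, -1.53, changed direction to 0.49 with keratin under 2%, and was -0.34 as a mean over cells and -0.53 without mixed and deepest barcodes. Depth limits the myofibre-like interferon values, which rest on 48 UMIs in AA+Ab.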
